A study of Mus musculus with 8 samples.

Results

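The constitutive proteasome genes of LLC1 cells were described across 3 X-ray regimens. They were taken as every gene whose array symbol begins with Psma, Psmb, Psmc, Psmd, Psme, Psmf or Psmg followed by a digit, leaving out the immunoproteasome subunits Psmb8, Psmb9 and Psmb10. Of 46 such symbols, measured by 75 probes, 44 had a probe above the negative controls on at least 2 arrays, out of 13404 genes that did, and each of the 44 did so on all 8 arrays. The 2 that did not, Psma8 and Psmb11, are the testis and thymus forms of core subunits and were above background on 0 arrays. The 44 comprised 14 subunits of the core particle, 17 of the regulatory particle and 12 activators, inhibitors and assembly chaperones. The remaining gene, Psmc3ip, meets the rule by its symbol but encodes a partner in meiotic recombination and no subunit, so it is given apart.

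LLC1 is a line of lung cancer cells from the C57BL/6 mouse. Total RNA was taken 4 h after irradiation. Every array compared irradiated cells, labelled with Cy5, with untreated LLC1 cells, labelled with Cy3, and no array exchanged the dyes. Cells received 2 Gy at once (2Gy, 3 arrays), 10 Gy at once (10Gy, 2 arrays) or 5 fractions of 2 Gy (5x2Gy, 3 arrays). The labels count 3 replicates of 10Gy, and the remaining one is not analysed here. The labels call the replicates biological, and neither the interval between fractions nor whether arrays share untreated RNA is given. Values are log2 ratios of irradiated over untreated cells, so that 0 is no difference and a value of 1 would be a doubling.

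The proteasome degrades proteins that carry ubiquitin chains. Its core particle is a barrel of alpha rings, which form the gate, and beta rings, of which Psmb5, Psmb6 and Psmb7 carry the chymotrypsin-like, caspase-like and trypsin-like sites. The regulatory particle caps the barrel: ATPases (Psmc genes) and scaffold and receptor subunits make its base, which unfolds the substrate, and a lid holds Psmd14, which removes ubiquitin. Alternative caps (Psme genes), an inhibitor (Psmf1) and dedicated assembly chaperones (Psmg genes, Psmd5, Psmd9 and Psmd10) complete the set. Subunit genes are known to rise together when proteasome activity is impaired, through the factor Nfe2l1, and by oxidative stress, through Nfe2l2.

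Promoters were read from RefSeq for 37 of the 44 members, as 40 windows of 250 bases before an annotated start in mouse GRCm38.p6. The windows of Psmb3 and Psmb4, which had the highest fitted log2 ratios of the core particle after 2 Gy and after 10 Gy, and of Psmd11 and Psmd12, which were called lower after 2 Gy, are shown because the results turn on these genes. They lie at chr11:97703184-97703433 (plus strand), chr3:94886959-94887208 (minus strand), chr11:80428365-80428614 (plus strand) and chr11:107479278-107479527 (plus strand) and are printed 5′ to 3′ on the gene's strand. Capitals mark CCAAT, the box bound by the factor NF-Y, and TGACNNNGC, the core of the antioxidant response element that Nfe2l1 and Nfe2l2 bind, each searched on both strands; no match of one overlaps a match of the other in these windows.
Psmb3: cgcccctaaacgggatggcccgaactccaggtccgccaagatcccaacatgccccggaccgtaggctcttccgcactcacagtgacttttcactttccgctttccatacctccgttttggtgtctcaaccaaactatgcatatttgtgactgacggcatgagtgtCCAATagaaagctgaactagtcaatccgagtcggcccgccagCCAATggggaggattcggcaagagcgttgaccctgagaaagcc
Psmb4: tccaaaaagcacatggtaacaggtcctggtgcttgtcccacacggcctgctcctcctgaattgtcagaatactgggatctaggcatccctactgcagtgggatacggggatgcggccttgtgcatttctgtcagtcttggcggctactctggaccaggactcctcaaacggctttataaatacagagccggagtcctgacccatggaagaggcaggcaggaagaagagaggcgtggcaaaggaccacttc
Psmd11: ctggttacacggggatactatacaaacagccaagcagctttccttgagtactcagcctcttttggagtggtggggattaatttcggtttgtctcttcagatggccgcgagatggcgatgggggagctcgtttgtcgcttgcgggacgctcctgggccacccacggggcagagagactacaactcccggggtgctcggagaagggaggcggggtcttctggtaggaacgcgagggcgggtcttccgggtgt
Psmd12: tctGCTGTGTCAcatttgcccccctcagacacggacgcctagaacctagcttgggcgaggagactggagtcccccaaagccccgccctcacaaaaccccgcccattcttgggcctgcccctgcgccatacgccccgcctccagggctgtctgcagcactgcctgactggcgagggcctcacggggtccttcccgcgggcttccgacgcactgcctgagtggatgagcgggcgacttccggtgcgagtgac
Psmb3 held 2 CCAAT boxes, 85 and 43 bases before the start, Psmd12 held 1 antioxidant core, 247 bases before it, and Psmb4 and Psmd11 held neither. Among the windows of the members, 5 of 40 (12.5%) held the antioxidant core, against 10.2% of 32851 windows of all genes, and they belonged to Psmb5, Psmb6, Psmc6, Psmd9 and Psmd12. A CCAAT box lay in 13 of 40 (32.5%), against 33.8% of all windows, and in 6 of 12 windows of the core particle and 4 of 15 of the regulatory particle. These matches describe the letters of the windows and were not tested against the expression values.

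The members were among the brightest genes of the arrays, with a median at the 93.7th percentile of mean intensity and 38 of 44 in the brightest 25%. In untreated cells the median signal of a member over the arrays ranged from 721 for Psmd10 to 25560 for Psma5. These are raw scanner units, not normalized between arrays and not comparable between probes. For Psmb3 the untreated signal ran from 8412 to 42884 over the arrays. No member spot had a pixel median at the scanner's ceiling (highest pixel median 59905). A median below the ceiling cannot show whether some pixels of a spot reached it, and this was not tested. Of the member spots, 144 of 352 (40.9%) carried a scanner flag of unstated meaning, against 4.18% of all spots. Flagged spots were kept. Of the epithelial markers, Krt8 and Krt18 were above background in the untreated channel of all 8 arrays and Epcam and Cdh1 in 0. The mesenchymal markers Vim and Fn1 were above it on all 8. Of the fibroblast markers, Col3a1 was above it on all 8 arrays and Col1a1 on 7. Of the leukocyte markers, Cd68 was above it on all 8 and Ptprc on 0, and of the endothelial markers, Cdh5 on 3 and Pecam1 on 0. By the image names in the file headers, the 2Gy arrays and 10Gy replicate 1 lay on slide 1, and 10Gy replicate 2 and the 5x2Gy arrays on slide 2. Each of the 2Gy and 5x2Gy groups thus lay on 1 slide, and for their difference slide and regimen can be separated only through the pair of 10Gy arrays.

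**Figure D1:**
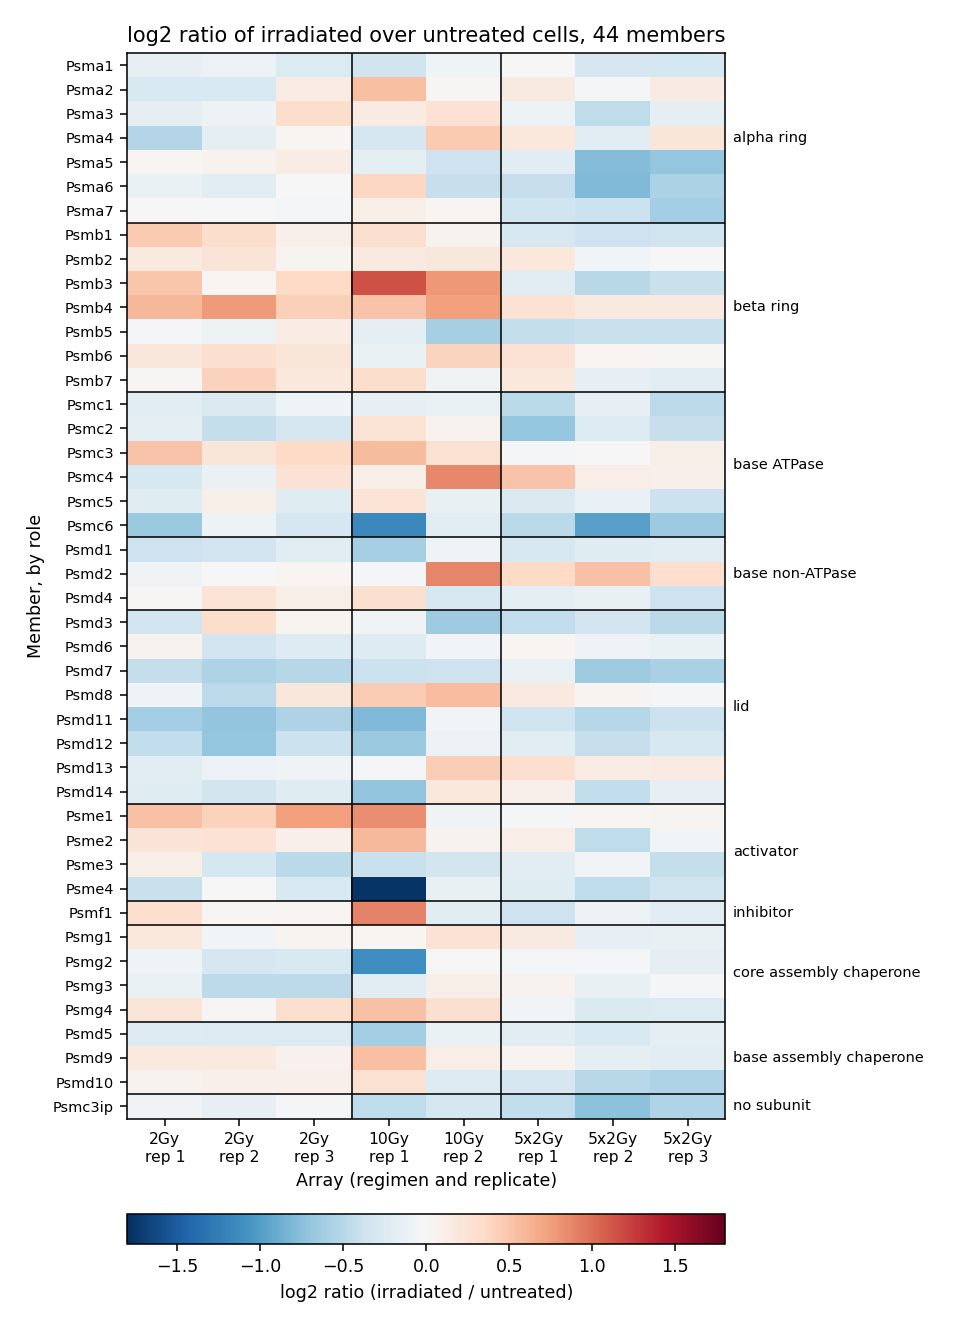
Log2 ratio of irradiated over untreated cells for each of the 44 members (rows, ordered by role) on each of the 8 arrays (columns, by regimen and replicate). Red is higher and blue lower in irradiated cells on a scale from -1.8 to 1.8; Psmb4 is above 0 on all 8 arrays, and 10Gy replicate 1 holds both the lowest member (Psme4, -1.76) and the highest (Psmb3, 1.15).

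After 2 Gy the beta subunit Psmb4, the base ATPase Psmc3 and the interferon-inducible activator Psme1 rose, and the lid subunits Psmd7, Psmd11 and Psmd12 and the core assembly chaperone Psmg3 fell. With slide as a random block 0 of these were called, beside 0.157% of all genes. The 7 called members (3 higher, 4 lower) were 15.9% of the 44, against 16.9% of all genes called (8.99% higher and 7.94% lower), by limma with Benjamini-Hochberg adjustment over all 13404 genes at an adjusted p under 0.05. The median of the 44 fitted values was -0.07, and that of all genes was -0.003. On all 3 arrays 30 of the 44 (68.2%) kept 1 sign, against 64.5% of all genes, and 12 had an unadjusted p under 0.05, against 33.1%. With median centring of each array in place of loess, 3 of the 44 fitted values were below 0, against 25 with loess.

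Psmb4, a structural beta subunit, was at 0.60, 0.76 and 0.43 on the 2Gy arrays, a mean of 0.60 ± 0.17 (SD, n = 3). All 3 were well above 0, and the fitted rise of 1.51-fold had an adjusted p of 0.0045. Psmb3, another beta subunit, was at 0.49, 0.03 and 0.36 and was not called (adjusted p = 0.12). Of the catalytic subunits, Psmb6 was at 0.20, 0.29 and 0.21, Psmb7 at 0.02, 0.41 and 0.20 and Psmb5 at -0.03, -0.09 and 0.13. All 7 beta subunits had a fitted value above 0, though Psmb5 lay at 0.00 ± 0.10 (SE), and 1 of the 7 was called. Without background correction, and with the deposited ratios, 1 of the 7 was below 0. A second, almost equally bright probe of Psmb3 was at -0.03, -0.16 and 0.14. In the alpha ring 5 of 7 were below 0, among them Psma4 at -0.52, -0.16 and 0.03, and 0 of 7 were called or had an unadjusted p under 0.05. With median centring all 14 core subunits were above 0.

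In the lid, Psmd11, a subunit that ties lid to base, was at -0.61, -0.70 and -0.55 on the 2Gy arrays. It fell by 0.62 ± 0.13 (SE) on the log2 scale (adjusted p = 0.013), with the 3 arrays close together. Psmd12, another lid scaffold, was at -0.44, -0.70 and -0.38 (adjusted p = 0.021), and Psmd7, the partner of the deubiquitinase, at -0.43, -0.56 and -0.51 (adjusted p = 0.016). Psmd14, the deubiquitinase itself, was at -0.21, -0.34 and -0.21 and was not called (adjusted p = 0.30). In all, 7 of the 8 lid subunits had a fitted value below 0 (2 of 8 with median centring) and 3 were called. With median centring the lid median was 0.13 instead of -0.30, Psmd7 was at 0.05, and Psmd11 and Psmd12 at -0.19 and -0.03 without a call. The called members were then 15 higher and 0 lower, beside 26.9% of all genes called. Under that scaling all genes had a median of 0.12 on the 2Gy arrays, the brightest 25% 0.32 and the members 0.33.

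In the base, Psmc3 was at 0.52, 0.21 and 0.36 on the 2Gy arrays (adjusted p = 0.034). It stood apart from the other ATPases, 5 of 5 of which had fitted values below 0, down to -0.35 for Psmc6, without a call, and with median centring all 6 ATPases were above 0. Psmc1 was at -0.19, -0.27 and -0.08, and the ubiquitin-binding subunits Psmd2 and Psmd4 averaged -0.01 ± 0.05 and 0.12 ± 0.12 (SD, n = 3). Psme1 was at 0.53, 0.41 and 0.74, a 1.47-fold rise (adjusted p = 0.031), while its partner Psme2 was at 0.24, 0.26 and 0.09 (adjusted p = 0.32). Psme4, the nuclear activator linked to DNA repair, was at -0.40, 0.01 and -0.28, and the chaperone Psmg1 at 0.19, -0.06 and 0.04, neither called. Psmg3 was at -0.12, -0.48 and -0.47 and passed narrowly (adjusted p = 0.049). Without replicate 1, 2 or 3 of 2Gy, 1, 0 and 1 members were called, beside 7.02%, 3.61% and 3.04% of all genes. More members and a larger share of all genes were called when either 10Gy array was left out, which left 1 array of 10Gy.

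After 10 Gy the beta subunits Psmb3 and Psmb4, the ATPase Psmc3, the lid subunit Psmd8 and the core chaperone Psmg4 rose, and the catalytic subunit Psmb5, the ATPase Psmc6, the activator Psme4 and Psmc3ip fell. With slide as a random block 1 member was called, beside 10.9% of all genes. The 9 called members (5 higher, 4 lower; 20.5%) compare with 28.2% of all genes (12.4% higher, 15.8% lower). The median of the fitted values was 0.07, against -0.06 for all genes, and 19 had an unadjusted p under 0.05, against 41.2% of all genes. None of the called members reached 2-fold in this regimen or in the others.

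Psmb3 had the highest value of the members on 10Gy replicate 1, at 1.15, and was at 0.78 on replicate 2, a fitted rise of 1.95-fold (0.96 ± 0.15, SE; adjusted p = 0.0017). Psmb4 was at 0.51 and 0.73 (adjusted p = 0.0046), Psmc3 at 0.57 and 0.27 (0.029), Psmd8 at 0.46 and 0.55 (0.033) and Psmg4 at 0.53 and 0.28 (0.032). For these 5 both arrays were clearly above 0. Psmb5 was at -0.16 and -0.59 and passed narrowly (adjusted p = 0.049), but was at 0.24 with median centring. Under that scaling 19 members were called higher and 1 lower, beside 29.1% of all genes called. The other catalytic subunits were not called: Psmb6 was at -0.12 and 0.39 and Psmb7 at 0.32 and -0.06.

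On the probes used, the calls of Psme4 and Psmc6 rested on replicate 1. Psme4 was at -1.76 on replicate 1 and -0.13 on replicate 2 (fitted -0.95 ± 0.29, SE; adjusted p = 0.037), the widest gap of any member. Psmc6 was at -1.15 and -0.20 (adjusted p = 0.045), and Psmg2, a core chaperone, at -1.12 and 0.01 without a call (adjusted p = 0.076). The inhibitor Psmf1 went the other way, with 0.90 and -0.19 (adjusted p = 0.23), as did Psme1, with 0.83 and -0.06 (0.14). High on replicate 2 alone were the receptor subunit Psmd2, with -0.03 and 0.88, and the ATPase Psmc4, with 0.11 and 0.87, neither called. On its dimmer probe Psmd2 was at -0.06 and -0.09. The dimmer probe of Psmg2 was at -0.61 and -0.43, below 0 on both arrays. Psma4 (-0.30 and 0.48), Psmd4 (0.28 and -0.29) and Psmd14 (-0.72 and 0.19) changed sign between the arrays, while Psmc1 (-0.15 and -0.12), Psme2 (0.58 and 0.07) and Psmg1 (0.04 and 0.26) kept it; none of these 6 was called.

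Compared array by array, 30 of the 44 members had the same sign on both 10Gy arrays (15 above and 15 below 0), which is 68.2%, against 60.5% of all genes. The median size of the difference between the arrays was 0.43 for the members and 0.41 for all genes. Across the 44 members, which share both hybridisations, Pearson's r between the arrays was 0.29, and across all genes 0.43. In the other regimens it was higher, 0.65 to 0.71 between 2Gy arrays and 0.63 to 0.81 between 5x2Gy arrays over the same members. Across all genes it was 0.65 to 0.81 between 2Gy arrays and 0.83 to 0.89 between 5x2Gy arrays. The 10Gy arrays lay on different slides and those of each other regimen on 1 slide. Slide and regimen therefore cannot be told apart in this comparison. Replicate 1 was also the widest array of the series: 17 members lay beyond 0.5 in either direction there and 4 beyond 1, against 7 and 0 on replicate 2 and 2 to 7 and 0 on the other 6 arrays. The SD of all genes was 0.69 on replicate 1, 0.46 on replicate 2 and 0.33 to 0.45 on the others. Leaving out an array of another regimen gave 2 to 6 called members after 10 Gy, beside 21.7% to 24.2% of all genes. Leaving out a 10Gy array left 1, and the count and the share of all genes then rose.

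**Figure D2:**
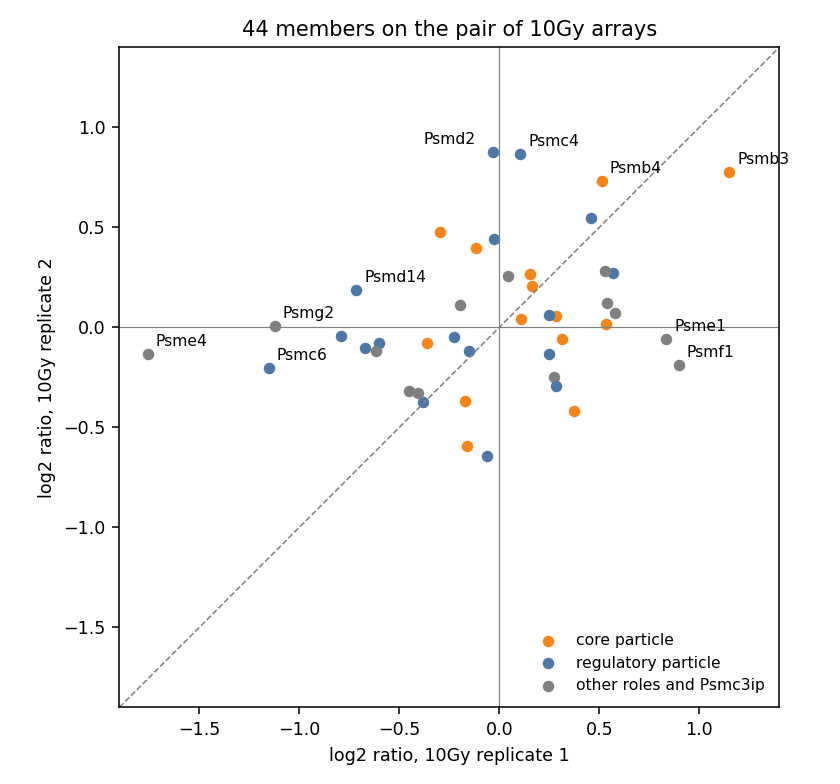
Log2 ratio of each of the 44 members on 10Gy replicate 1 (horizontal) and replicate 2 (vertical), coloured by role, with the line of equal values dashed. On the probes used, Psmb3 and Psmb4 are high on both arrays, whereas Psme4 and Psmg2 are low and Psmf1 and Psme1 high on replicate 1 alone. Other probes of Psme4 and Psmg2 are below 0 on both arrays.

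After 5 fractions of 2 Gy every called member was lower: 14 fell and 0 rose (31.8%, against 40.9% of all genes, 17.6% higher and 23.4% lower). They were 6 of 14 core subunits, in both rings, 6 of 17 regulatory subunits, in base and lid, the base chaperone Psmd10 and Psmc3ip. The median of the 44 was -0.22, against -0.02 for all genes, and 33 of 44 fitted values were below 0 (30 with median centring). On all 3 arrays 31 of the 44 (70.5%) kept 1 sign, against 75.5% of all genes, and 17 had an unadjusted p under 0.05, against 50.2%. Each of the 14 kept its sign under every scaling tried. With median centring, however, 4 members were called lower and 4 higher, beside 39% of all genes called, and the median over members was -0.09 on these arrays.

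Psma7, an alpha subunit, was at -0.36, -0.38 and -0.61 on the 5x2Gy arrays (adjusted p = 0.0036). Psma5 was at -0.20, -0.78 and -0.69 (0.0054) and Psma6 at -0.41, -0.79 and -0.56 (0.0099), so 3 alpha subunits fell by 1.37- to 1.51-fold, with replicate 1 the nearest to 0 in each. The chymotrypsin-like subunit Psmb5 was nearly the same on the 3 arrays, at -0.42, -0.40 and -0.40 (adjusted p = 0.011). Psmb1 (-0.28, -0.37 and -0.36; 0.023) and Psmb3 (-0.19, -0.50 and -0.40; 0.035) also fell. The remaining catalytic subunits did not: Psmb6 was at 0.27, 0.04 and 0.02 and Psmb7 at 0.19, -0.15 and -0.19, and Psmb4 stayed above 0, at 0.27, 0.17 and 0.17 (adjusted p = 0.12).

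Among the ATPases, Psmc6 was at -0.49, -0.97 and -0.65, the lowest fitted value of the members (-0.70 ± 0.18, SE; adjusted p = 0.012). Psmc2 was at -0.70, -0.24 and -0.42 (0.0092) and Psmc1 at -0.49, -0.15 and -0.46 (0.014). In the lid, Psmd7 was at -0.12, -0.64 and -0.58 (0.011), and Psmd3 and Psmd11 were lower as well, by 0.42 and 0.43 on the log2 scale. Of the receptor subunits, Psmd2 was at 0.36, 0.53 and 0.31, the highest fitted value of the members (adjusted p = 0.055), and Psmd4 at -0.18, -0.13 and -0.37 (0.15). On its dimmer probe Psmd2 was at -0.22, -0.14 and 0.05, so whether these subunits parted depended on the probe. Psmd14 was at 0.09, -0.44 and -0.14 and Psma4 at 0.19, -0.18 and 0.22, both with arrays on either side of 0.

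Of the other roles, Psmd10, a base chaperone also known as the oncoprotein gankyrin, was at -0.30, -0.49 and -0.55 (adjusted p = 0.011) and was the only one of 12 called. The activators were not called: Psme1, which had risen after 2 Gy, was at -0.03, 0.03 and 0.05, Psme2 at 0.12, -0.45 and -0.05 and Psme4 at -0.21, -0.46 and -0.35. Psmg1 was at 0.16, -0.14 and -0.13. Psmc3ip was at -0.45, -0.73 and -0.54 and had the smallest p of the 44 (adjusted p = 0.0014). The count of 14 became 7, 4 and 2 without replicates 1, 2 and 3 of 5x2Gy, beside 24%, 23.1% and 22.4% of all genes. It rose, as did the share of all genes, when either 10Gy array was left out, which left 1 array of 10Gy. With slide as a fixed block the counts for 2Gy, 10Gy and 5x2Gy were 8, 23 and 14 (33.3%, 48.6% and 36.5% of all genes), and with slide as a random block 0, 1 and 0 (0.157%, 10.9% and 6.08%).

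Core and regulatory particle were set against each other on each array as the difference of their medians. On the 2Gy arrays the core lay higher by 0.23, 0.28 and 0.33, a mean of 0.28 ± 0.05 (SD, n = 3). The core medians there were 0.01, 0.01 and 0.13 and the regulatory medians -0.21, -0.27 and -0.19. On the 10Gy arrays the core was higher by 0.22 on replicate 1 and 0.10 on replicate 2. On the 5x2Gy arrays the differences were 0.13, -0.18 and 0.04, on either side of 0, with a mean of -0.003 ± 0.163. The 3 values of 2Gy and the 3 of 5x2Gy thus did not overlap, while replicate 1 of 10Gy, on slide 1, lay at 0.22, next to the 2Gy arrays on that slide, and replicate 2 lay among the 5x2Gy arrays of slide 2.

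Furthest apart after 2 Gy were the beta ring of the core and the lid of the regulatory particle. The beta ring had medians of 0.20, 0.29 and 0.20 on the 2Gy arrays and the lid -0.28, -0.40 and -0.22. The alpha ring (-0.15, -0.10 and 0.03) and the ATPases (-0.21, -0.11 and -0.15) lay between them. With median centring the 2Gy means of these medians were 0.79 for the beta ring and 0.13 for the lid, both above 0. The order beta ring above lid, which the regimen means kept with median centring, also held on both 10Gy arrays (0.28 against -0.30, and 0.21 against -0.05) and on the 5x2Gy arrays (0.19 against -0.04, -0.15 against -0.38 and -0.19 against -0.22). Under the settings that change normalization, filter, probes or flags, the 2Gy difference of core and regulatory medians stayed above 0, from 0.17 with the mean over a gene's probes to 0.40 with median centring. No p is given for these medians, since the members were chosen together.

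**Figure D3:**
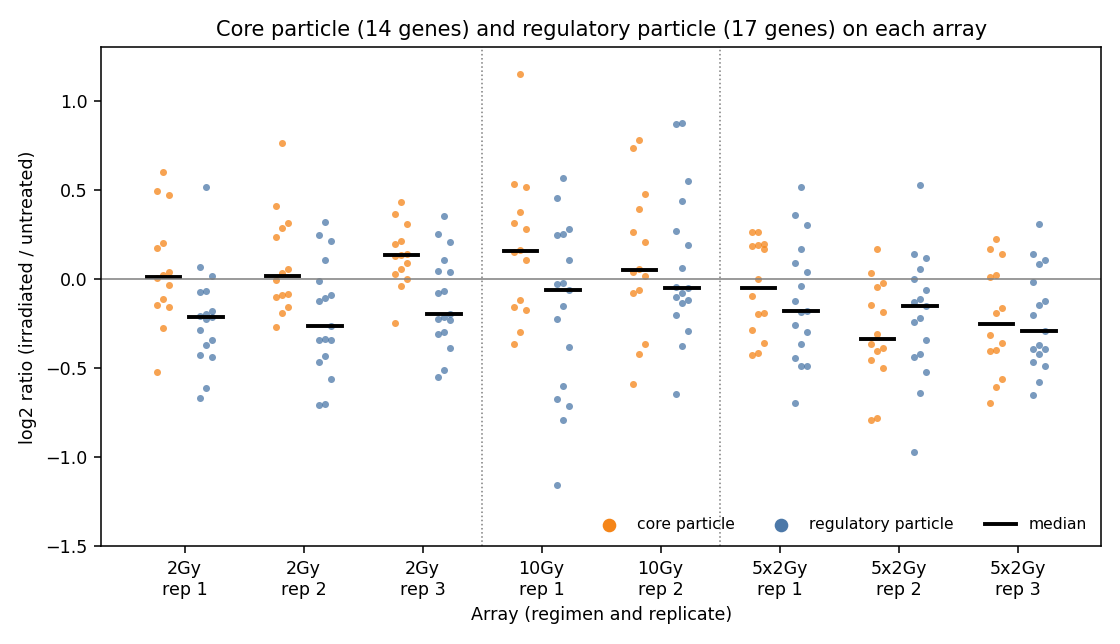
Log2 ratios of the 14 core (orange) and 17 regulatory (blue) genes on each array, with black bars at the medians. The core median lies above the regulatory median by 0.23 to 0.33 on the 2Gy arrays, and on 5x2Gy replicate 2 it lies below.

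Between regimens no member passed the test. At 10Gy against 2Gy, 0 of 44 were called (2.56% of all genes were, 1.04% higher and 1.52% lower) and 4 had an unadjusted p under 0.05 (20.4% of all genes did). Psmb3 had the smallest p, with 1.15 and 0.78 after 10 Gy against 0.49, 0.03 and 0.36 after 2 Gy, a difference of 0.67 ± 0.19 (SE; adjusted p = 0.094). Its second probe was at 0.29 and -0.02 against -0.03, -0.16 and 0.14. Psmd8 differed by 0.61 ± 0.19 (0.12) and Psmc2 by 0.46 ± 0.17 (0.17). Within slide 1, that is for 10Gy replicate 1 against the 2Gy arrays, the differences were 0.85, 0.57 and 0.55. The arrays of the regimens did not overlap for 9 of the 44 members, 20.5%, against 32.2% of all genes. Without 10Gy replicate 1 there were 6 called members (11.1% of all genes), and without replicate 2 there were 7 (32.1%).

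At 5x2Gy against 2Gy again 0 members were called (1.31% of all genes, 0.38% higher and 0.925% lower), with 12 at an unadjusted p under 0.05 (25.6% of all genes), and 28 of 44 differences were below 0. In the core particle 12 of 14 were below 0 and 7 had an unadjusted p under 0.05, whereas in the regulatory particle 7 of 17 were below 0 and 1 did. Psmb1 was at -0.28, -0.37 and -0.36 after 5x2Gy against 0.47, 0.32 and 0.09 after 2Gy, a difference of -0.63 ± 0.14 (SE; adjusted p = 0.059). Psmb3 differed by -0.66 ± 0.17 (0.068) and Psmc3ip by -0.49 ± 0.13 (0.071). The regimens lay on different slides, and with slide as a block the difference of Psmb1 was -0.40 (adjusted p = 0.27). For 18 of 44 members the groups did not overlap, 40.9%, against 47% of all genes. Without either 10Gy array, 15 members were called, 13 of them lower after 5x2Gy, beside 29.8% of all genes, and with median centring 8 were, all lower, beside 5.57%.

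At 5x2Gy against 10Gy, 0 members and 0% of all genes were called, and 12 members had an unadjusted p under 0.05 (16.7% of all genes). Psmb3 had the widest gap of any member between regimens, with -0.19, -0.50 and -0.40 against 1.15 and 0.78, a difference of -1.33 ± 0.19 (SE), or 2.51-fold (unadjusted p = 4.44e-05, adjusted p = 0.17). Within slide 2, against 10Gy replicate 2 alone, it was -1.14. The second, almost equally bright probe of Psmb3 was at -0.35, -0.77 and -0.30 against 0.29 and -0.02, a narrower gap. Psmg4 differed by -0.59 ± 0.15 (adjusted p = 0.20) and Psma7 by -0.52 ± 0.14 (0.20). The groups did not overlap for 12 of 44 members, 27.3%, against 30% of all genes. Without 10Gy replicate 2, 19 members were called, 14 of them lower after 5x2Gy, beside 43.2% of all genes, and without replicate 1 there were 0.

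Over all 8 arrays, 10 members kept 1 sign, which is 22.7%, against 28.2% of all genes. Psmb4 was the only member above 0 on every array. Below 0 on every array were Psma1, Psmc1, Psmc6, Psmd1, Psmd5, Psmd7, Psmd11, Psmd12 and Psmc3ip, that is 6 of 17 regulatory subunits and 1 of 14 core subunits. Among all 13404 genes, 2045 were below 0 and 1741 above 0 on every array. These signs are those after loess. With median centring each of the 9 low members had a mean above 0 in at least 1 regimen. Examples are Psma1 (0.27) and Psmd7 (0.05) after 2 Gy and Psmd12 (0.17) after 10 Gy. The 3 comparisons with untreated cells share the untreated line and the orientation of the dyes, so a dye effect of a single probe would give 1 sign on all arrays too; it was not tested.

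Where a gene had several probes the brightest was used, and the others are a check of the value. Of the 44 members 25 had 1 kept probe and 19 had more, and another probe had a mean of opposite sign for 7 of these 19 after 2 Gy, 8 after 10 Gy and 6 after 5x2Gy. Psmb3 is the case that bears on the results most. Its probes were almost equally bright (14.75 and 14.73 in mean log2 intensity), but on the 10Gy arrays the second was at 0.29 and -0.02, against 1.15 and 0.78 for the first. On the 5x2Gy arrays both were below 0, the second at -0.35, -0.77 and -0.30. With the mean over probes the rise of Psmb3 after 10 Gy was 0.55 and was still called (adjusted p = 0.015).

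For Psma4 the second probe lay below 0 on all 8 arrays, down to -0.81 on 2Gy replicate 1 and to -0.69 on 5x2Gy replicate 2, where the first was at -0.18. For Psmd7 both bright probes were low after 2 Gy, the second at -0.52, -0.45 and -0.44, but after 5x2Gy the second was at -0.13, 0.00 and 0.02. For Psmc6 the dimmer probe was the lower after 5x2Gy, at -1.19, -1.11 and -1.15, and after 10 Gy it was at -0.57 and -1.17, where the brighter one was at -1.15 and -0.20. The dimmer probes of Psme4 were below 0 on both 10Gy arrays, at -0.84 and -0.53 and at -0.14 and -0.53. Which probe measures which transcript of these genes was not tested.

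**Figure D4:**
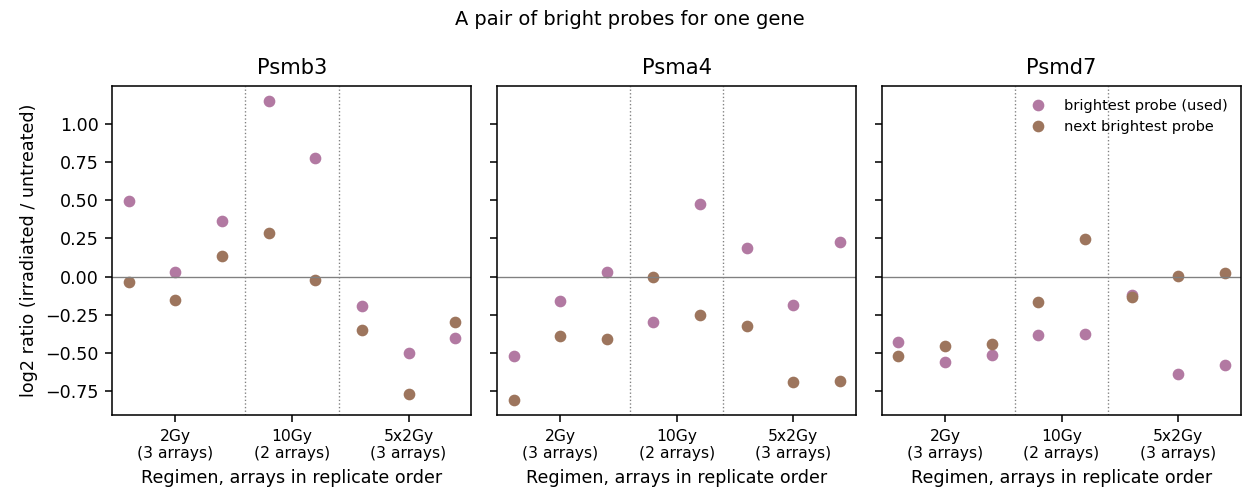
Log2 ratio of the brightest (purple) and next brightest (brown) probe of Psmb3, Psma4 and Psmd7 on each array, in replicate order within a regimen. The probes of Psmb3 differ most on the 10Gy arrays, those of Psma4 on the 5x2Gy arrays, and those of Psmd7 part on the 10Gy arrays and on 5x2Gy replicates 2 and 3.

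A list of 34 further genes around the proteasome, such as ubiquitin genes, shuttle factors and the transcription factors, gave 33 kept genes, and Paaf1 was not kept. After 2 Gy 1 was called higher and 5 lower, after 10 Gy 8 and 7, and after 5x2Gy 4 and 7. These are 18.2%, 45.5% and 33.3% of the list, against 16.9%, 28.2% and 40.9% of all genes, and each of these calls kept its sign with median centring. The shuttle Ubqln1, which brings ubiquitinated proteins to the regulatory particle, was lower in every regimen, at -0.74, -0.75 and -0.79 on the 2Gy arrays (adjusted p = 0.0014), -0.71 and -0.53 on the 10Gy arrays (0.0024) and -0.51, -0.44 and -0.45 on the 5x2Gy arrays (0.0024). Its partner in this role, Rad23b, was called lower in each as well, by 0.47, 0.68 and 0.49 on the log2 scale. The ligase Ube3a fell by 0.52, 0.98 and 0.91 and Nfe2l2 rose by 0.44, 0.76 and 0.62.

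Usp14, a deubiquitinase bound to the regulatory particle, was at -0.53, -0.42 and -0.42 after 2 Gy and was called in all 3 regimens. Ecpas, a proteasome adaptor, was at -1.38 and -0.69 after 10 Gy (adjusted p = 0.0024). The ubiquitin-activating enzyme Uba1 was at 0.62, 0.71 and 0.55 after 5x2Gy (0.0011), against 0.10, 0.25 and -0.01 after 2 Gy. Nfe2l1, chosen after its values were seen, was at -0.63, -0.49 and -0.46 after 2 Gy (adjusted p = 0.051), at 0.30 and -0.69 after 10 Gy and at -0.58, -0.47 and -0.79 after 5x2Gy (0.014).

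Of the 3 immunoproteasome subunits, which replace the catalytic subunits after interferon, Psmb8 was called higher after 10 Gy. It was at 1.36 on replicate 1 and 0.58 on replicate 2 (adjusted p = 0.0034), against 0.14, 0.07 and 0.05 after 2 Gy. Psmb9 and Psmb10, chosen after their values were seen, were not called, with Psmb9 at 1.69 and -0.11 and Psmb10 at 0.16 and 0.08. The constitutive counterparts Psmb5, Psmb6 and Psmb7 were at -0.16, -0.12 and 0.32 on replicate 1. Psme1 and Psme2, the interferon-inducible activators, were at 0.83 and 0.58 on that array and at -0.06 and 0.07 on replicate 2. Cd68, a macrophage marker that was above background in untreated cells, was at 1.89 and 0.55 on these arrays and Col3a1 at -2.32 and 0.56; their part in these values was not tested.

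How the arrays were scaled set the general level of the members. With loess, which levels each array across intensities, the median of the 44 lay between -0.20 and 0.04 on the 8 arrays. With median centring it was 0.29 to 0.36 on the 2Gy arrays, 0.82 and 0.16 on the 10Gy arrays and -0.15 to 0.00 on the 5x2Gy arrays. The brightest 25% of all genes, to which 38 members belong, lay at 0.31 to 0.34, at 0.41 and 0.12, and at 0.04 to 0.07. So on 10Gy replicate 1 the members lay 0.82 above 0 and the brightest 25% 0.41, and on the 5x2Gy arrays the members lay below the brightest 25% under both scalings.

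**Figure D5:**
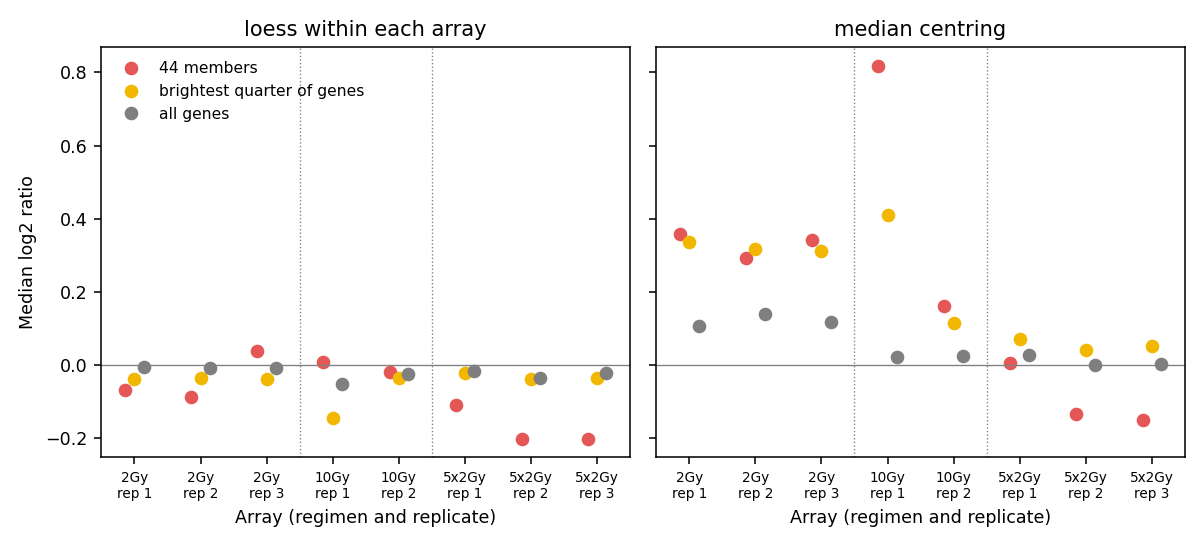
Median log2 ratio per array of the 44 members (red), the brightest 25% of genes (yellow) and all genes (grey), after loess within each array (left) and after median centring alone (right). The median of the members after centring is highest on 10Gy replicate 1 (0.82), and on the 5x2Gy arrays it lies below that of the brightest 25% in both panels.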

How the data were processed

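Each of 8 arrays gave a spot intensity in 2 channels, as pixel means that are uncorrected and unnormalized per the file headers (ImaGene format 9.0). The authors' deposited log2 ratios, whose processing is not given in the sources used here, served as an alternative. Mean signals were corrected with normexp (offset 50), normalized by loess within arrays (limma 3.58.1, R 4.3.3) and turned to irradiated over untreated. Probes were kept where a channel exceeded the median of 153 negative control spots plus 2.6 robust SDs on at least 2 arrays (21685 of 41174). Of all probes, 27902 matched RefSeq, 7027 kept the array's symbol and 6245 had none; the brightest probe stood for each of 13404 genes. One limma model with a mean per regimen gave moderated tests, adjusted by Benjamini-Hochberg over all genes and called under 0.05; 6 comparisons were made. On data simulated with noise independent between arrays it recovered 44%, 22% and 48% of log2 changes of 0.5 for 2Gy, 10Gy and 5x2Gy. In the data the consensus correlation with slide as a random block was 0.70, which the simulation left out, so these rates need not hold here. The number of arrays limits the precision. Members and lists were chosen with earlier results of these data known. Named with statistics were up to 4 called members per role by p, 12 fixed members such as the catalytic subunits, the 3 smallest p where none was called, and up to 5 listed related genes; others named were chosen after their values were seen. Replicate numbers were not used to pair arrays (r of deviations -0.24 to 0.11 over 7 pairs, 1 over 0.1). Deviations from means of so few arrays, which mirror each other for 10Gy, cannot settle whether the numbers pair them.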

Additional observations from a re-analysis of the deposited data

Results flagged for a closer look

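Ufd1, a partner of the segregase Vcp that hands ubiquitinated proteins to the proteasome, was the only gene of the members and the related list that differed between regimens by limma. It is 1 of 33 related genes (3.0%) called at 10Gy against 2Gy, close to the 2.56% of all genes. It was at 0.52 and 0.56 on the 10Gy arrays, at -0.02, -0.16 and -0.13 on the 2Gy arrays and at 0.35, 0.44 and 0.26 on the 5x2Gy arrays. The difference of 10Gy against 2Gy was 0.65 (1.57-fold, adjusted p = 0.042). Both 10Gy arrays were higher than any 2Gy array, and for 32.2% of all genes these groups did not overlap. The difference was above 0 under all 20 alternative settings, from 0.53 to 0.69, and was called under 10 of them, with adjusted p from 0.0076 to 0.20.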

How the results depend on the processing

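With median centring instead of loess the counts of called members were 15 (2Gy, 26.9% of all genes), 20 (10Gy, 29.1%), 8 (5x2Gy, 39%) and 8 (5x2Gy against 2Gy, 5.57%). The medians over members were then 0.33, 0.49 and -0.093, and the core minus regulatory difference 0.40 (2Gy) and 0.33 (10Gy). The members below 0 went from 25 to 3 (2Gy), 20 to 8 (10Gy) and 33 to 30 (5x2Gy). Among those that changed sign were the called Psmd7 after 2 Gy (0.049) and Psmb5 after 10 Gy (0.24), and Psmd2 after 2 Gy was at 0.49 and called. With the deposited ratios the 2Gy core difference was 0.20. With the mean over probes it was 0.17, the 10Gy median was -0.034 and 3 members were called at 5x2Gy against 2Gy (1.82% of all genes). With the replicate number as a block, 4 members were called after 2 Gy (10.6% of all genes) and 2 after 10 Gy (17%). With slide as a fixed block 23 were called after 10 Gy (48.6% of all genes), 7 at 10Gy against 2Gy (32.1%) and 3 at 5x2Gy against 2Gy (17.7%). Psmd2 (0.44) and Psme4 (0.59) after 2 Gy changed sign. With slide as a random block 0, 1 and 0 were called in the 3 regimens (0.157%, 10.9% and 6.08% of all genes) and 4 at 10Gy against 2Gy (21.6%). Leaving out spots with a scanner flag, chosen after seeing the data, left 2 of 36, 5 of 32 and 6 of 37 testable members called. Of all genes 14.8%, 27.1% and 40% were called in that setting. It gave a 10Gy median of -0.12 and a 5x2Gy core difference of 0.22. Fits on only the arrays compared called 14, 0 and 25 (35.9%, 2.08% and 59.9% of all genes), and 15 at 5x2Gy against 2Gy (29.8%). Leaving out 1 array at a time gave 0 to 15 (2Gy), 2 to 18 (10Gy), 2 to 25 (5x2Gy), 0 to 7 (10Gy against 2Gy), 0 to 15 (5x2Gy against 2Gy) and 0 to 19 (5x2Gy against 10Gy). The cause of these changes was not tested. Of 1865 values over 94 named results, 1562 stayed on their side of the threshold (58 of them without a call and with the other sign), 206 lost the call, 92 gained it and 5 changed sign with a call on either side. The number of arrays and, for the dimmest members, signal over background limit the precision.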
